A study of Rattus norvegicus with 5 samples.

Results

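The genes of MHC class II and its invariant chain were followed in blood cells that had been depleted of class II-bearing cells. The members were the probes whose single gene symbol starts with RT1-B, RT1-D or RT1-H (the rat class II regions) or is Cd74 or Ciita. This gave 10 probes for 10 genes, out of 26856 probes with a signal on every array and 5990 named genes. Of the 10, 9 passed the filter on dim probes and were tested, and RT1-Db1 did not pass it.

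The cells were blood leucocytes enriched for myeloid-derived suppressor cells (MDSCs), immature myeloid cells able to dampen T cells. Tolerant recipients were LEW.1A rats (haplotype RT1a) that had accepted a LEW.1W kidney (haplotype RT1u), mismatched for MHC classes I and II, after treatment with the anti-CD28 antibody JJ319. Syngeneic recipients were LEW.1A rats with a LEW.1A kidney. The LEW.1W donors' kidneys were 8 to 12 weeks old, and no age of the recipients was found in the labels. Cells were taken at day 100 in both groups, and recipient cells of both groups carry the haplotype RT1a. In both groups red cells were lysed, cells stained by OX6 (anti-MHC class II) or G4.18 (anti-CD3) were removed with beads, and cells stained for CD80 or CD86 were then collected magnetically. Data of 3 tolerant and 2 syngeneic arrays were analysed, although 3 syngeneic recipients are named in the design text. The labels do not say which animal each array stands for, so a p-value here reflects variation between arrays that could be technical.

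An MHC class II molecule is a pair of an alpha and a beta chain that shows peptides from the endosomes to CD4 T cells. The chains are assembled on the invariant chain (Cd74), which blocks the peptide groove until endosomal proteases cut it down. The chaperone DM then exchanges its last fragment for a peptide, and DO, found mainly in B cells, restrains DM. Transcription of all these genes depends on the coactivator Ciita, which binds no DNA itself and docks on factors at the X and Y boxes of class II promoters. B cells, dendritic cells and activated monocytes carry class II, and rat neutrophils and resting T cells carry little or none.

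The promoters of the members are shown because X and Y boxes are the elements through which Ciita is known to act on class II genes. Promoter sequences (250 bases before and 50 after the annotated start) were taken from RefSeq for the build GRCr8, and 8 of the 10 members had one. On each line below the first capitals mark a match to GNNAC, the core of an X box, and the second mark TGATTGG, a Y box with its reversed CCAAT. For Cd74 the second capitals mark CCAAT in the other orientation.
RT1-Da: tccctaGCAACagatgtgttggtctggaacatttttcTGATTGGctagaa
RT1-Bb: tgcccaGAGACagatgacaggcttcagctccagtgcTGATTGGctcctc
RT1-Db1: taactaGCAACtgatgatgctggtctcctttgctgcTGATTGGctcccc
RT1-Ha: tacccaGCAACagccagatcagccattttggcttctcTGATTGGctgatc
RT1-DMa: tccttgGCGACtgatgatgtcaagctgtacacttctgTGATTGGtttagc
RT1-DOa: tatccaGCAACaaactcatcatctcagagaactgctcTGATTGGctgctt
RT1-DOb: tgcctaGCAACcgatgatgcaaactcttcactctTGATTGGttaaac
Cd74: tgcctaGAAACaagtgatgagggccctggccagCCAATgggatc

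The 7 RT1 stretches lie on chromosome 20, at chr20:4515327-4515376 on the plus strand for RT1-Da and on the minus strand at chr20:4604169-4604217 for RT1-Bb, chr20:4560232-4560280 for RT1-Db1 and chr20:4772243-4772292 for RT1-Ha. The chaperone genes lie on the minus strand too, at chr20:4712389-4712438 for RT1-DMa, chr20:4758520-4758569 for RT1-DOa and chr20:4627596-4627642 for RT1-DOb. The Cd74 stretch is outside the MHC, at chr18:56526984-56527027 on the plus strand. All 7 RT1 promoters held GNNAC followed 20 to 30 bases later, on the strand of the gene, by TGATTGG. The gap was 23 bases in RT1-DOb and 25 or 26 in the other 6, and the Y box began between 51 and 114 bases before the annotated start. On either strand, 0.920% of 33365 distinct rat promoters of the same length held this pair, and 7.05% held TGATTGG alone. The letters searched were chosen after these promoters had been read. In Cd74 the GNNAC match and CCAAT were 22 bases apart, and the pair as spelled above was not found. A match is a description of the letters and does not show that a factor binds.

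Each array gave 1 chemiluminescent signal per probe, with a median between 563 and 757 on tolerant arrays and of 798 and 676 on syngeneic arrays 1 and 2. Signals below are log2 values after quantile normalization, with a floor at 8.29 (the 10th percentile). As a background level, 18 probes for olfactory receptors, genes that blood cells should not use, were taken, and their 95th percentile was found on each array. It was between 10.50 and 11.22 on tolerant arrays and was 11.25 and 11.19 on syngeneic arrays 1 and 2. Signals of different probes cannot be set against each other, so levels are compared between arrays and not between genes. Over all probes syngeneic 2 stood apart: its correlations with other arrays were 0.84 to 0.86, where pairs among the remaining 4 reached 0.89 to 0.92. Results are therefore also given without it. Itgam (CD11b), a myeloid integrin used to define MDSCs, gave 12.00, 12.18 and 13.38 on tolerant arrays, against 12.87 and 9.38 on syngeneic arrays, and only syngeneic 2 fell short of its background level. In such mixed cells, fewer cells of a type and less RNA per cell cannot be told apart.

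Although class II-bearing cells had been removed, 6 of the 10 members were above background on all 5 arrays: RT1-Da, RT1-Bb, Cd74, RT1-DMa, RT1-DMb and Ciita. Array by array, 6 to 9 of the 10 members were above background, against 22.1% to 29.4% of all probes. RT1-DOa and RT1-Ha were at background in syngeneic cells, RT1-DOb was above it on 2 tolerant arrays and 1 syngeneic array, and RT1-Db1 was at background throughout. All 9 tested probes had a higher mean in tolerant than in syngeneic cells, with a median difference of 0.94 on the log2 scale and a range from 0.42 to 3.61 (for RT1-DMa the sign turned without normalization between arrays and without syngeneic 2). None passed an adjusted p of 0.05 (limma, Benjamini-Hochberg over 13428 probes), and 2 had an unadjusted p under 0.05. Over all probes tested the median difference was 0.00. Of these probes, 50.3% had a difference above 0, 0.0447% passed in either direction and 0% in the direction of a rise; without syngeneic 1, 76 probes passed, 42 of them higher and 34 lower in tolerant cells, and no class II probe was among them. An unadjusted p under 0.05 with a rise was found for 1.99%.

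**Figure D1:**
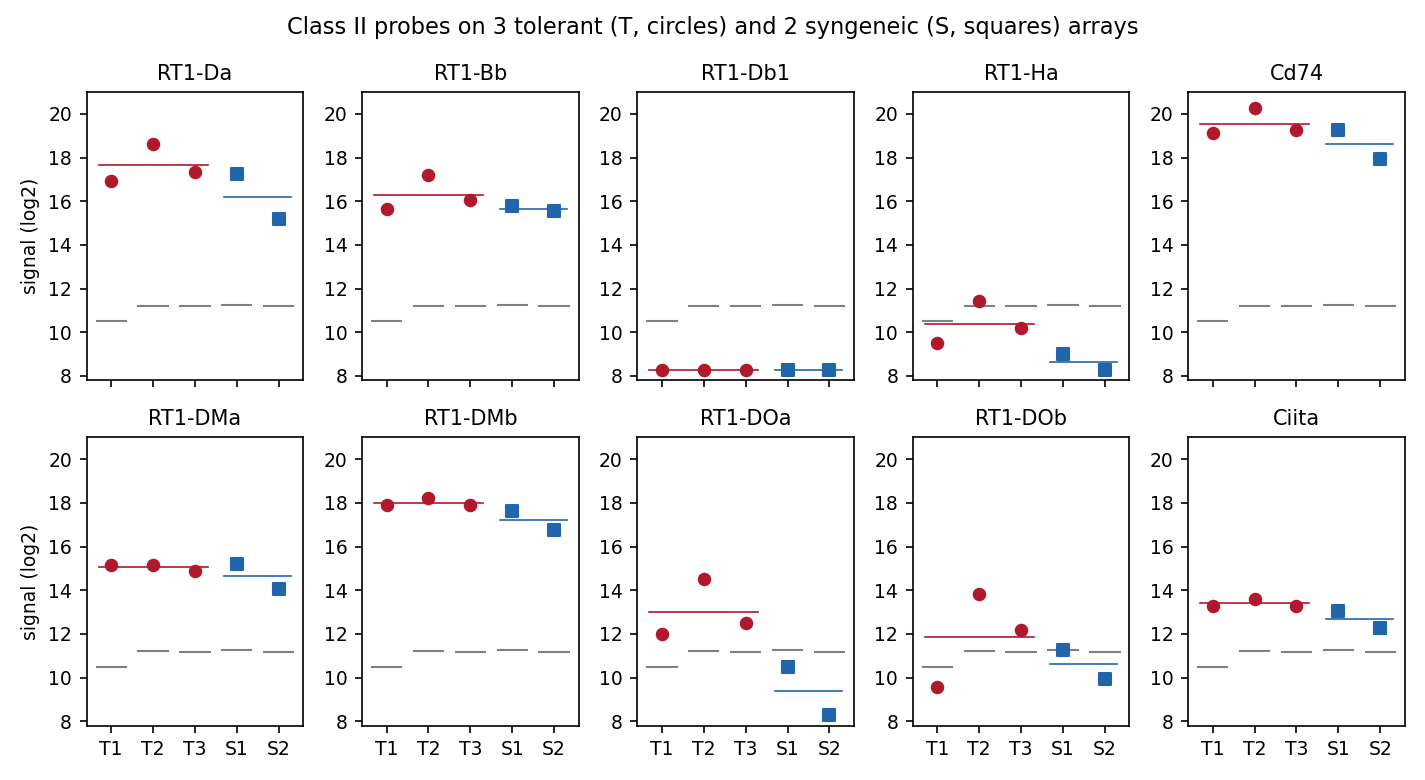
Signal of each of the 10 class II probes (vertical axis, log2 after quantile normalization) on tolerant arrays 1 to 3 (circles) and syngeneic arrays 1 and 2 (squares). Coloured lines are group means and grey dashes the background level of each array; RT1-Db1 lies at the floor of 8.29 on all 5 arrays, and tolerant 2 is the highest array for 8 of the 9 probes tested.

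RT1-Da is the alpha chain of RT1.D, the rat counterpart of human DR. Its signal was 16.95, 18.64 and 17.36 on tolerant arrays 1, 2 and 3, against 17.23 and 15.17 on syngeneic arrays 1 and 2. Tolerant 2 was the highest array and syngeneic 2 the lowest, and tolerant 1 lay below syngeneic 1, so the groups overlapped. Tolerant arrays averaged 17.65 ± 0.88 (SD, n = 3), against 16.20 ± 1.46 (SD, n = 2) for syngeneic arrays. The difference of 1.45 (SE 0.80, 95% interval -0.49 to 3.38, limma adjusted p = 0.907) was smaller than the gap of 2.06 between the syngeneic arrays. Without syngeneic 2 it was 0.42, and without syngeneic 1 it was 2.48.

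The partner chain of RT1-Da, the beta chain RT1-Db1, had no measurable signal. Its deposited log2 values were 7.36, 7.74 and 7.74 on tolerant arrays, against 6.80 and 7.60 on syngeneic arrays, all under the floor. Whether the probe for RT1-Db1 can detect the transcript of the RT1a haplotype was not tested.

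RT1-Bb is the beta chain of RT1.B, the rat counterpart of human DQ. Its signal was 15.62, 17.22 and 16.06 on tolerant arrays 1, 2 and 3, against 15.77 and 15.53 on syngeneic arrays 1 and 2. The syngeneic arrays were close to each other, tolerant 1 lay between them, and tolerant 2 stood above the rest. The difference was 0.65 (SE 0.57, 95% interval -0.74 to 2.04, limma adjusted p = 0.907), and it was 0.19 without tolerant 2. For this chain the gap between the syngeneic arrays was 0.24, whereas the tolerant arrays spanned 1.60.

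RT1-Ha is the alpha chain of the RT1.H locus, the rat counterpart of human DP. It gave 9.51, 11.43 and 10.22 on tolerant arrays, against 9.02 and the floor of 8.29 on syngeneic arrays. Every tolerant value was above both syngeneic values, but only tolerant 2 was above background. The fitted difference was 1.73 (SE 0.66, 95% interval 0.14 to 3.32, limma adjusted p = 0.900). With both syngeneic arrays at background and the tolerant mean below it too, no fold is measured. Its mean over the 5 arrays, 9.69, was just above the filter of 9.40, so it entered the test largely through the tolerant arrays.

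Cd74, the invariant chain, was bright on every array. Its signal was 19.11, 20.25 and 19.27 on tolerant arrays 1, 2 and 3, against 19.27 and 17.94 on syngeneic arrays 1 and 2. Tolerant 3 and syngeneic 1 were level, tolerant 1 was slightly below them, and the arrays that stood out were tolerant 2 above and syngeneic 2 below. Tolerant arrays averaged 19.54 ± 0.61 (SD, n = 3), against 18.61 ± 0.94 (SD, n = 2) for syngeneic arrays. The difference of 0.94 (SE 0.60, 95% interval -0.52 to 2.40, limma adjusted p = 0.907), 1.92-fold, was smaller than the gap of 1.33 between the syngeneic arrays. Without syngeneic 2 it was 0.27, and without syngeneic 1 it was 1.61. From array to array Cd74 and RT1-Da moved much alike: the log2 ratio of Cd74 to RT1-Da varied by 1.16 across arrays, where Cd74 itself varied by 2.31 and RT1-Da by 3.47. This did not hold for every member. For Ciita, RT1-Bb, RT1-DMa and RT1-DMb the ratio to RT1-Da varied by 2.13, 1.82, 2.40 and 2.01. That was more than these members varied themselves (1.34, 1.69, 1.15 and 1.46). For RT1-DOa, RT1-DOb and RT1-Ha the ratio varied less than the member.

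The chains of DM, the peptide exchanger, varied less than the classical chains in tolerant cells. RT1-DMa gave 15.16, 15.14 and 14.90 on tolerant arrays, against 15.22 and 14.07 on syngeneic arrays. It was the 1 tested member whose highest array was syngeneic 1, and its difference was 0.42 (SE 0.48, 95% interval -0.75 to 1.59, limma adjusted p = 0.922). Without syngeneic 2 that difference was -0.16. RT1-DMb gave 17.90, 18.21 and 17.89 on tolerant arrays, against 17.65 and 16.76 on syngeneic arrays. All tolerant values of RT1-DMb lay above both syngeneic values, with a difference of 0.80 (SE 0.45, 95% interval -0.29 to 1.89, limma adjusted p = 0.907), or 0.35 without syngeneic 2. The tolerant arrays spanned only 0.26 for RT1-DMa and 0.33 for RT1-DMb, against 1.69 for RT1-Da, and the difference between these spans was not tested. The syngeneic arrays did not keep this order. Their gap was 1.15 for RT1-DMa and 0.89 for RT1-DMb, against 2.06 for RT1-Da, 0.24 for RT1-Bb and 0.73 for RT1-Ha.

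**Figure D2:**
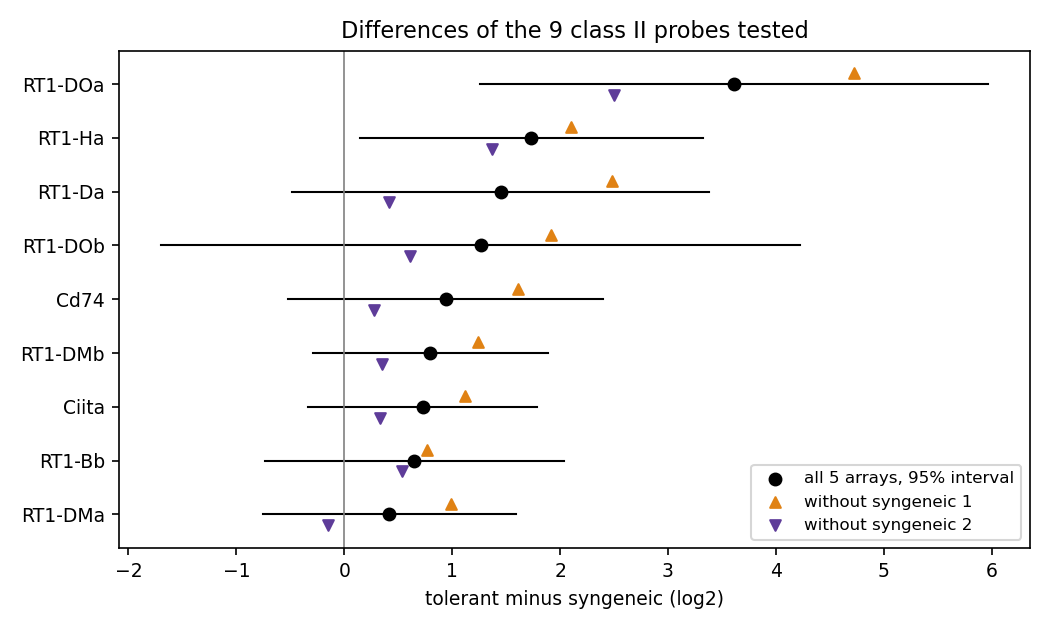
Difference between tolerant and syngeneic cells (horizontal axis, log2) for the 9 class II probes tested. Black points and lines give the fit on all 5 arrays with its 95% interval, and triangles the fits without syngeneic 1 (pointing up) and without syngeneic 2 (pointing down); without syngeneic 2 RT1-DMa lies below 0 and RT1-DOa is at 2.50, the highest of the 9.

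RT1-DOa, the alpha chain of the DM inhibitor DO, had the largest difference among the members. Its signal was 12.00, 14.51 and 12.52 on tolerant arrays 1, 2 and 3, against 10.51 and the floor of 8.29 on syngeneic arrays 1 and 2 (deposited value 7.90 on syngeneic 2). All tolerant arrays were above background and both syngeneic arrays were below it, so the groups did not overlap. Tolerant arrays averaged 13.01 ± 1.32 (SD, n = 3), against 9.40 ± 1.57 (SD, n = 2) for syngeneic arrays. The fitted difference was 3.61 (SE 0.97, 95% interval 1.26 to 5.97, limma adjusted p = 0.667). Measured against background, RT1-DOa was at least 3.46-fold higher in tolerant cells, at least 4.50-fold with the background level taken from 482 olfactory receptor probes, and at least 2.29-fold with the 99th percentile of the 18. Without tolerant 2 the bound was 2.06-fold. The fitted difference was between 2.50 (without syngeneic 2) and 4.72 (without syngeneic 1) when 1 array was left out. Its adjusted p lay between 0.139 and 1.00 over all alternatives.

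RT1-DOb, the beta chain of DO, did not part the groups. It gave 9.58, 13.82 and 12.20 on tolerant arrays, against 11.26 and 9.95 on syngeneic arrays. Tolerant 1 was the lowest of all 5 arrays and tolerant 2 the highest, a span of 4.24 within 1 group. The difference was 1.26 (SE 1.22, 95% interval -1.70 to 4.23, limma adjusted p = 0.907), and it was 0.29 without tolerant 2 and 2.41 without tolerant 1.

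Ciita, the coactivator of class II transcription, gave 13.28, 13.62 and 13.30 on tolerant arrays, against 13.07 and 12.28 on syngeneic arrays. Every tolerant value was above both syngeneic values. Tolerant arrays averaged 13.40 ± 0.19 (SD, n = 3), against 12.67 ± 0.56 (SD, n = 2) for syngeneic arrays, a difference of 0.73 (SE 0.44, 95% interval -0.33 to 1.79, limma adjusted p = 0.907). Without syngeneic 2 the difference was 0.33. Across arrays Ciita spanned 1.34, less than RT1-Da at 3.47 and Cd74 at 2.31, all on the log2 scale.

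Tolerant 2 was the highest array for 8 of the 9 tested members, against 15.5% of all probes tested, and syngeneic 2 the lowest for 8 of 9, against 25.4%. The exceptions were RT1-DMa, highest on syngeneic 1, and RT1-DOb, lowest on tolerant 1. In 4 of the 9, RT1-DOa, RT1-Ha, RT1-DMb and Ciita, the groups did not overlap, which held with tolerant on top for 9.74% of all probes tested. RT1-Ha is among them although it passed the filter through its tolerant values, so its separation and its unadjusted p carry no weight of their own. As in the array at large, for 6 of the 9 the gap between the syngeneic arrays was larger than the difference between the groups, against 68.2% of all probes tested. Of the 27 pairs of a tolerant array and a member, the value exceeded that of syngeneic 1 in 19 and that of syngeneic 2 in 26; over all probes tested such pairs made up 50.1% and 47.6%.

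**Figure D3:**
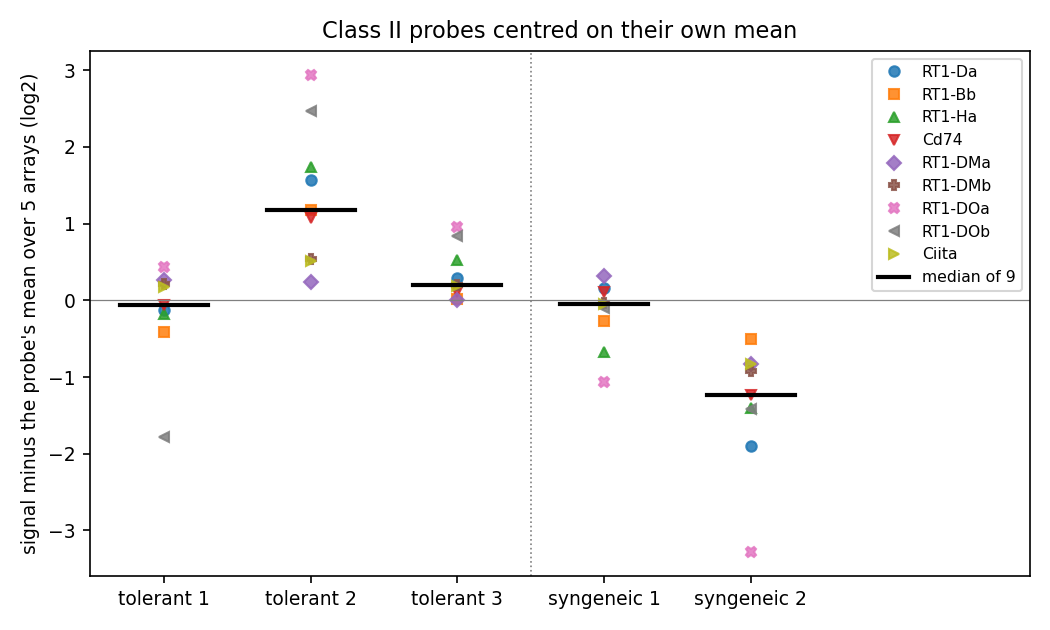
Signal of the 9 tested class II probes on each array, minus the mean of that probe over the 5 arrays (vertical axis, log2); black bars are the median of the 9. The median is 1.18 on tolerant 2 and -1.23 on syngeneic 2, while tolerant 1 (-0.06), tolerant 3 (0.21) and syngeneic 1 (-0.04) lie close together.

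With each probe set to its own mean, the members' median was -0.06, 1.18 and 0.21 on tolerant arrays 1, 2 and 3, against -0.04 and -1.23 on syngeneic arrays 1 and 2. Tolerant 1 and syngeneic 1 were thus level, and the arrays that stood apart were tolerant 2 above and syngeneic 2 below. The median difference of the members was 0.42 without syngeneic 2, with RT1-DMa lower, and 1.61 without syngeneic 1. Of all probes tested, 51.5% had a difference above 0 without syngeneic 2 and 48.1% without syngeneic 1. Cd74 lay closest to the members' median profile, at a root mean square distance of 0.09 over the 5 arrays. RT1-DOa was farthest at 1.35 and RT1-DOb next at 1.01, with the other 6 between 0.34 and 0.51.

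Among 1826 other named genes above background on at least 3 arrays, the 6 whose centred values were most like the members' median profile over the 5 arrays were Syk, Lat2, Zfp386, Csrp1, Exoc2 and Eci1. Syk, a tyrosine kinase that acts below immune receptors, was at a root mean square distance of 0.11, against a median of 0.86 for the candidates and 0.77 for a flat profile. Its signal was 11.32, 12.39 and 11.72 on tolerant arrays, against 11.43 and 10.13 on syngeneic arrays. Lat2 (NTAL), a membrane adaptor of B cells and myeloid cells, was next at 0.22. It gave 11.79, 13.45 and 12.57 on tolerant arrays, against 12.12 and 11.25 on syngeneic arrays. The other 4 were at 0.25 to 0.36, and none of the 6 passed in limma (adjusted p = 0.907 for each). Small distances follow from the way the 6 were chosen. On syngeneic 2 all of them but Lat2 were below that array's background level of 11.19. How far those genes fell on syngeneic 2 was therefore not measured.

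Genes that feed or regulate the pathway were taken from lists. Of 5 transcription factors of class II promoters on the array 4 were tested, with 3 higher and 1 lower in tolerant cells and a median of 0.42 (-0.03 without syngeneic 2); none passed, and none had an unadjusted p under 0.05. Spi1 (PU.1), a myeloid and B cell factor, gave 14.42, 13.53 and 14.23 on tolerant arrays, against 14.22 and 10.20 on syngeneic arrays. Its difference of 1.85 (SE 1.13, limma adjusted p = 0.907) was -0.16 without syngeneic 2. Nfyb, a subunit of the factor that binds the Y box, was above background on 1 tolerant and 1 syngeneic array, with a difference of -0.53 (SE 0.59; 0.15 without syngeneic 1).

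Of 4 genes of the interferon gamma axis that induces Ciita, 3 were higher and 1 lower, with a median of 0.56 (-0.58 without syngeneic 2), and none passed. Socs1, an inhibitor of interferon signalling, had an unadjusted p under 0.05, but it was above background on 1 tolerant array and no syngeneic array. Its mean of 9.41 over the 5 arrays was just above the filter of 9.40, which it passed through the tolerant arrays, so this p is not read as a result. It gave 10.93, 9.57 and 9.40 on tolerant arrays, against 8.66 and 8.48 on syngeneic arrays. The count and the median above include Socs1 and share this limit. The other genes of the axis, Ifngr1, Jak2 and Irf1, differed by 1.04, 0.08 and -0.14.

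Of 8 endosomal proteases, which cut the invariant chain and the antigens, 6 were higher and 2 lower, with a median of 0.32 (-0.43 without syngeneic 2), and none passed. Ctsb (cathepsin B) gave 18.43, 17.89 and 18.22 on tolerant arrays, against 17.72 and 17.63 on syngeneic arrays, a difference of 0.50 (SE 0.40, limma adjusted p = 0.907). Ctsh (cathepsin H) was level on 4 arrays, between 15.90 and 16.51, and was 11.68 on syngeneic 2, so its difference of 1.87 became -0.55 without that array.

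Both genes tested for handling of class II at membranes, the tetraspanins Cd63 and Cd82, were lower in tolerant cells without passing. Cd63 gave 12.81, 11.90 and 11.97 on tolerant arrays, against 12.93 and 14.68 on syngeneic arrays, a difference of -1.58 (SE 0.64, limma adjusted p = 0.907; -0.70 without syngeneic 2). It had an unadjusted p under 0.05, as did 3.38% of all probes tested on the side of a fall. Of the 2 listed receptors that bind class II, Cd4 had a difference of 0.22 (SE 0.77, or -1.03 without syngeneic 2) and did not pass. Which cells gave the Cd4 signal was not tested. The other, Lag3, was at background on all tolerant arrays and at 11.33 and 12.88 on syngeneic arrays, a level at least 2.19-fold lower in tolerant cells (limma adjusted p = 0.551; at least 1.28-fold without syngeneic 2 and 3.76-fold without syngeneic 1).

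Markers of cells that carry class II were read on the same arrays. Of 20 B cell markers listed, 4 are named on the array, and all 4 had higher means in tolerant cells. The median was 1.83, or 0.96 without syngeneic 1 and 1.16 without tolerant 2, and none passed. Cd79b and Fcer2 had an unadjusted limma p under 0.05, as did 1.99% of all probes tested on the side of a rise. Fcer2 passed the filter of 9.40 through its tolerant values (syngeneic mean 8.69), so its p is not read as a result. The count and the median above include Fcer2 and share this limit. Cd37, Ebf1 and Cd79b differed by 0.23, 0.91 and 2.75. The summed normalized signal of the 4 markers was 217587 to 441582 in tolerant cells and 152732 to 227060 in syngeneic cells. Cd37, with a difference of 0.23, made up 56.0% to 95.9% of it. Cd79b, which signals for the B cell antigen receptor, gave 14.72, 17.47 and 15.62 on tolerant arrays, against 12.38 and 14.00 on syngeneic arrays, all above background. Its difference was 2.75 (SE 0.92, limma adjusted p = 0.865; 1.94 without syngeneic 1 and 3.56 without syngeneic 2). Like RT1-DOa and RT1-Da it was highest on tolerant 2, but it was lowest on syngeneic 1 and not on syngeneic 2.

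Fcer2 (CD23), a B cell receptor for IgE, gave 9.93, 12.65 and 11.87 on tolerant arrays, against 9.09 and 8.30 on syngeneic arrays. It was at background in syngeneic cells, above it on 2 tolerant arrays, and at least 1.20-fold higher in tolerant cells. That bound rested on tolerant 2: without it no bound was left, and without tolerant 1 it was 2.06-fold. Ebf1, a B lineage transcription factor, differed by 0.91 (SE 1.15; -0.83 without syngeneic 1), and 2 tolerant arrays and 1 syngeneic array were above background. The part of B cells in the class II signal was not tested.

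Of 20 monocyte and macrophage markers listed, 8 are named on the array and 7 were tested, with 6 higher and 1 lower in tolerant cells and a median of 1.22 (0.50 without syngeneic 2); none passed. Their summed normalized signal was 1044500 to 1936040 in tolerant cells and 660913 to 855481 in syngeneic cells, but Lyz2 alone made up 84.3% to 93.6% of it. The list's median centred signal overlapped between the groups, at 0.22 to 0.59 on tolerant arrays, against 0.47 on syngeneic 1 and -1.35 on syngeneic 2. Lyz2 (lysozyme) gave 20.74, 20.48 and 19.75 on tolerant arrays, against 19.50 and 19.24 on syngeneic arrays, a difference of 0.96 (SE 0.46, limma adjusted p = 0.907). Cd14, a coreceptor for lipopolysaccharide, was between 15.44 and 15.85 on tolerant arrays, against 15.09 and 13.84 on syngeneic arrays. For Nr4a1, a nuclear receptor of patrolling monocytes, the range was 15.07 to 16.10 on tolerant arrays, against 15.04 and 11.20 on syngeneic arrays. The difference of 2.42 for Nr4a1 was 0.50 without syngeneic 2. Unlike the class II members, Lyz2, Cd14 and Nr4a1 were highest on tolerant 1. Like 8 of the 9 class II members tested, they were lowest on syngeneic 2. Tlr4 was at background throughout. The 1 lower marker was Cx3cr1, at 11.40, 10.20 and 9.62 on tolerant arrays, against 11.76 and 11.27 on syngeneic arrays. It differed by -1.11, and by -1.36 without syngeneic 2. The part of monocytes in the class II signal was not tested.

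Of 5 dendritic cell markers on the array 3 were tested, and 1 to 3 of the 5 were above background on any one array; Clec10a was above it on all 3 tolerant arrays and on syngeneic 1, where it reached 12.88. Their summed normalized signal was 3748 to 9005 in tolerant cells, against 13430 on syngeneic 1 and 5385 on syngeneic 2. Batf3 differed by -1.11, Ccr7 by 0.49 and Clec10a by 0.75, and none passed; the list's median of 0.49 was -1.34 without syngeneic 2. Of 3 plasmacytoid dendritic cell markers tested, 2 had higher means in tolerant cells (median 0.32) and none passed; Bst2 (12.09 to 16.17 over the 5 arrays) and Tcf4 (13.56 to 15.19), both also used by other cells, were above background on every array. Their summed normalized signal was 45759 to 75641 in tolerant cells, against 92855 on syngeneic 1 and 22529 on syngeneic 2.

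Markers of cells that carry little or no class II ran the other way. In the T cell and NK cell lists 0 of 10 tested were higher in tolerant cells, with medians of -2.62 and -3.11. There 1 T cell marker (Cd5) and 3 NK cell markers (Gzmk, Klrd1 and Klre1) passed. Their tolerant means were 8.62, 9.10, 8.63 and 8.69, under the filter of 9.40 and at background on every tolerant array. They passed the filter through the syngeneic arrays, so these calls carry no weight of their own. Other markers of both lists entered the same way, so the counts and medians share this limit. In the neutrophil list 0 of 7 tested were higher, with a median of -2.84, and none passed. The neutrophil markers' median centred signal was -1.35 to -0.70 on tolerant arrays, against 1.27 on syngeneic 1 and 2.54 on syngeneic 2. In the erythroid list 1 of 4 tested was higher, with a median of -5.08, and none passed. That median matches no gene: Hbb and Hbb-b1 differed by -9.11 and -8.67, Gata1 by -1.48 and Slc4a1 by 0.32. Gata1 was at background in both groups, and Slc4a1 was above it on 1 tolerant array only. The tolerant means of Hbb, Hbb-b1 and Gata1 (8.29, 8.60 and 8.91) were under the filter of 9.40. So were those of Il1r2, Mmp8 and Mmp9 in the neutrophil list (9.01, 9.38 and 9.06). These genes entered through the syngeneic arrays, so the counts and medians of the neutrophil and erythroid lists share this limit. Hbb, a beta globin, was at the floor on all tolerant arrays, against 14.49 and 20.30 on syngeneic arrays 1 and 2. Both lists were thus highest on syngeneic 2, the array where the class II median was lowest. The part of these cells in the class II pattern was not tested.

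**Figure D4:**
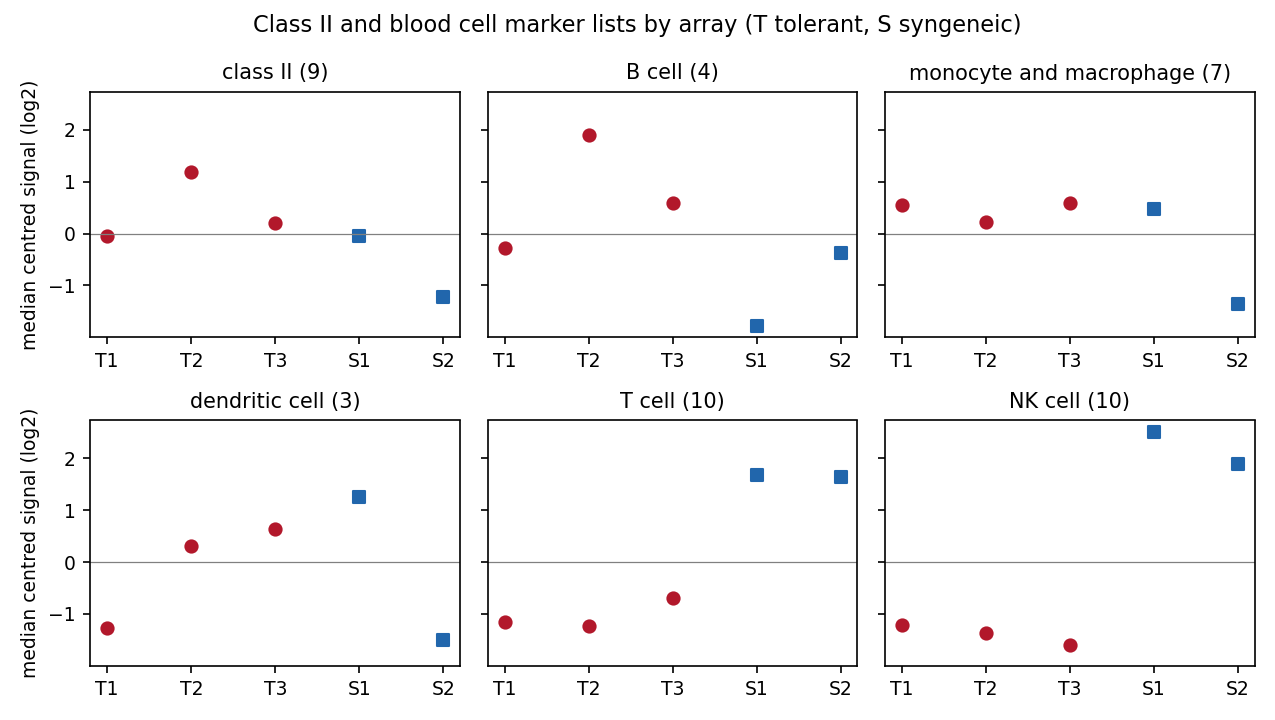
Median over the tested members of each list (number in brackets) of the signal minus each probe's own mean (vertical axis, log2), on tolerant (circles) and syngeneic (squares) arrays. Class II and B cell markers are both highest on tolerant 2 (1.18 and 1.90), B cell markers are lowest on syngeneic 1 (-1.78) where class II is at -0.04, and monocyte markers stand between 0.22 and 0.59 on all arrays but syngeneic 2 (-1.35). The class II, B cell, T cell and NK cell lists hold members that passed the filter only through the arrays of their brighter group.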

How the data were processed

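RNA of MDSC-enriched blood cells was hybridised to the Applied Biosystems rat genome survey array (60-mer probes, 1 colour), per the labels' protocols. The authors deposited the raw intensity of 26857 probes on 5 arrays, on a linear scale; no source used here gives the scanner software, background subtraction or flags. They also deposited log2 values, which matched quantile-normalized raw intensities to within 0.000102. A single probe lacked a signal on 1 array and was dropped.

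After quantile normalization, values under the 10th percentile were raised to it and log2 was taken. The brighter fraction of the probes by mean (9.40 or more) entered the fit with limma 3.58.1 (R 4.3.3), with Benjamini-Hochberg adjustment; the fit was tested on simulated data. Differences are tolerant minus syngeneic. Where a group lay at or below the background level on every array, a fold is given as a bound: the brighter group's mean against the dim group's, in which each array counts with its signal or its background level, whichever is higher. The design named symbols starting with Olr for that level; 482 probes, with newer symbols included, were used as an alternative after the data were seen. The number of arrays limits the precision, and no batch label was used.

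Probe names come from the platform annotation in GEO: 6104 probes have 1 symbol, 70 have several and 20682 are not listed, which are unnamed here. Of the Entrez identifiers, 6081 matched RefSeq, and 0 symbols changed. Named genes were every member, then, per pathway list, members with an unadjusted p under 0.05 or else the 2 with the smallest p, the 3 with the smallest p in the lists of cells that carry class II, and the 6 most alike in pattern; Cd4, Cd37, Cd82, Tlr4, Itgam, Bst2, Tcf4, Hbb, Cd5, Gzmk, Klrd1 and Klre1 were named after their values were seen. Cx3cr1, Hbb-b1, Gata1, Slc4a1, Il1r2, Mmp8, Mmp9, Ifngr1, Jak2 and Irf1 were also named after their values were seen. Where a gene had more than 1 probe, the brightest was used. The members and lists were chosen with earlier results of these data known.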

Additional observations from a re-analysis of the deposited data

How the results depend on the processing

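The count of probes called over the whole array depended on the processing: it was 6 as reported, 53 with median scaling, 81 without normalization (1 of them higher in tolerant cells), 14 with an intensity trend in the variance, and 0 without the filter on dim probes, with array weights and with the replicate number as a block. With 1 array left out it was between 0 and 76, with 76 (42 higher, 34 lower) reached without syngeneic 1. No class II probe was called under any of these alternatives. The members' median difference stayed above 0 in all 12 alternatives, from 0.41 without normalization to 1.61 without syngeneic 1 (0.62 with median scaling and 1.08 with the replicate block). Median scaling moved the median of all probes to -0.16 and no normalization to -0.37. The difference of RT1-DMa turned to -0.092 without normalization, and with 1 array left out it lay between -0.16 (without syngeneic 2) and 0.99 (without syngeneic 1); no other member changed sign. RT1-Ha fell below the filter without tolerant 2. Whether the shared replicate numbers mark a pairing could not be decided. Same-numbered arrays deviated from their group means with a correlation of -0.10 for number 1 and 0.02 for number 2. With 2 syngeneic arrays the deviations in that group mirror each other, so crossed pairs gave the same values with the sign changed (0.10 and -0.02). With other percentiles of the olfactory receptor probes the bound for RT1-DOa was 4.47-fold (90th) and 2.29-fold (99th). Leaving out 1 syngeneic array leaves a lone sample, which is assumed to vary like the tolerant group.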
